A study of Drosophila melanogaster with 4 samples.

Results

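The Drosophila microRNA gene mir-278 was followed across 4 small RNA libraries of Schneider 2 (S2) cells, an embryonic fly cell line. Its members were all rows of the deposited miRNA table named for mir-278, which are 2 of 495 rows, 1 for each arm of the hairpin, from 1 of 219 miRNA genes. The gene was chosen by its level, which earlier results of these data showed to be below nbrKO in every library with a construct. The levels and every comparison with nbrKO are therefore given as a description, with no test.

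Of the 4 libraries, 3 came from cells whose Nibbler gene (nbr) had been removed by CRISPR-Cas9 and which stably carried a construct under the Act5C driver, with the genotypes Act5C>Nbr(wt); nbrKO, Act5C>NbrCTD; nbrKO and Act5C>NbrCTD-GWp; nbrKO. The remaining library came from nbrKO cells with no construct, and so every group shares the knockout. The titles call each construct overexpressed. Nbr(wt) is wild-type Nibbler. What CTD and GWp stand for is not stated in the labels, and cells are called here by their construct. There was 1 library per group, and the labels do not say whether a line is 1 clone. Neither cells with intact Nibbler nor knockout cells with an empty construct were analysed here, so a change caused by a construct and one that came with making or growing a line cannot be told apart.

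A miRNA hairpin is cut into a pair of arms. Usually the guide stays bound to an Argonaute protein and the passenger is lost. Nibbler is a 3′-to-5′ exonuclease that shortens the 3′ ends of Argonaute-bound miRNAs, and untemplated nucleotides added to the same end form tails. In flies, miR-278 is known from tissue overgrowth when it is overproduced and from a role in the fat body, where its loss disturbs the response to insulin and where expanded is a described target. The question of the comparison is how miRNAs of cells with each form of Nibbler differ from those of cells without it.

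In the table, mir-278 lies on the plus strand of chromosome arm 2R, with the 5′ end of miR-278-5p at position 11544587 and that of miR-278-3p at 11544626, 39 bases apart. The genome build behind these positions is not given in the sources used here. In the Ensembl annotation of the BDGP6 assembly, the 98-base hairpin (FBgn0262403) lies inside 1 other gene, the protein-coding CG42524, on the same strand. There it falls in exon 5, within the 3′ UTR, of 1 of 3 CG42524 transcripts. The same annotation gives a length of 22 nt for the mature RNA of the 3p arm and 23 nt for that of the 5p arm. The nearest other miRNA row of the table, miR-4919-5p, is 288765 bases away, so mir-278 is not part of a close cluster. The seed of miR-278-3p, the bases that choose its targets, was shared with 1 other row, miR-4976-3p, which had 1 read in nbrKO and no row in the other libraries.

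The libraries held between 24005045 and 32488012 reads by the scale of the deposited values, and 13126126 to 20177315 of these lay in miRNA rows. Levels are given as miRNA RPM, the reads of the listed 5′ isoform per 1000000 reads in the 261 miRNA arms present in all 4 libraries. Brackets after a value give an exact 95% interval, which covers counting error only. The 12 miRNAs listed as common in S2 cells made up 80.3% of miRNA reads in Nbr(wt) cells, 77.2% in NbrCTD cells, 78.2% in NbrCTD-GWp cells and 74.7% in nbrKO. In miRNA RPM, miR-279-3p and miR-996-3p of these were at least 2-fold above nbrKO with every construct, and miR-184-3p in NbrCTD-GWp cells. miR-252-5p was at least 2-fold below with every construct. With the TMM factors explained below, it was that far below only in NbrCTD-GWp cells. Of 20 miRNAs listed as markers of other cells, 16 were given in all 4 libraries. Their summed level was 170.4 miRNA RPM in Nbr(wt) cells, 155 in NbrCTD cells and 142 in NbrCTD-GWp cells, against 242 in nbrKO. The defining muscle marker miR-1-3p and the neuronal miR-124-3p stayed below 3 miRNA RPM in every library. None of the 16 was at 0 in any library, but they were taken for being given in all 4. The listed testis markers miR-972-3p, miR-973-5p, miR-974-5p and miR-975-5p were not given in all 4. Most of the sum was 1 marker, the ovarian miR-318-3p, with 121 miRNA RPM in Nbr(wt) cells, 100.3 in NbrCTD cells and 88.9 in NbrCTD-GWp cells, against 142 in nbrKO. Of the 16 markers, 15 stood below nbrKO in Nbr(wt) cells, 14 in NbrCTD cells and 14 in NbrCTD-GWp cells. Among those above it, let-7-5p had 3.18 miRNA RPM in NbrCTD cells against 2.03 in nbrKO. Among those below it, the early embryo marker miR-6-3p had 22.5 miRNA RPM in Nbr(wt) cells, 24.9 in NbrCTD cells and 20.5 in NbrCTD-GWp cells, against 48.4 in nbrKO. The early embryo marker miR-5-5p had 5.55, 5.67 and 6.20 against 14.0. Some markers rest on very few reads, such as miR-978-3p with 1, 2 and 2 against 13 in nbrKO. Standing below nbrKO was common elsewhere too, with 84, 68 and 76 of 123 better measured arms in the same order. Of the 4 markers that averaged 100 reads or more, 2, 1 and 2 were at least 2-fold below nbrKO with no overlap of intervals. These were miR-5-5p each time, and miR-6-3p in Nbr(wt) and NbrCTD-GWp cells. The same held for 25.2%, 15.4% and 17.1% of all 123 arms, and 0 of the 4 were that far above. In miRNA RPM the marker sum thus lay on the same side of nbrKO as mir-278, but its direction in Nbr(wt) cells depended on the scaling: with factors from a trimmed mean of the arms' ratios (TMM factors) the sum was 264 in Nbr(wt) cells, 223 in NbrCTD cells and 188 in NbrCTD-GWp cells, against 242 in nbrKO. With TMM factors, 10, 10 and 12 of the 16 markers stood below nbrKO in the same order, and 0 of the 4 were at least 2-fold below. Without miR-318-3p, the sum of the other markers lay below nbrKO with every construct under each scaling tried. It was 49.6, 54.9 and 52.8 against 99.4 in miRNA RPM, and 76.8, 78.8 and 70.3 against 99.4 with TMM factors. The change of direction in Nbr(wt) cells thus came with miR-318-3p. The part of these markers in the values below was not tested.

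The guide arm, miR-278-3p, was several times rarer in every library with a construct than in nbrKO. It had 6173 reads in Nbr(wt) cells, 3220 in NbrCTD cells and 3438 in NbrCTD-GWp cells, against 14703 in nbrKO. The level was 314 miRNA RPM (307 to 322) in Nbr(wt) cells, 223 (215 to 231) in NbrCTD cells and 199 (193 to 206) in NbrCTD-GWp cells, against 1150.4 (1132 to 1169) in nbrKO. No 2 of these intervals overlap, and nbrKO stood far above the other libraries. On the log2(miRNA RPM + 1) scale the difference from nbrKO was -1.87 in Nbr(wt) cells, -2.36 in NbrCTD cells and -2.52 in NbrCTD-GWp cells. These differences correspond to levels 3.65-fold, 5.15-fold and 5.75-fold lower. With TMM factors, the difference in Nbr(wt) cells was -1.24.

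The passenger arm, miR-278-5p, was lower as well, and by more. It had 151 reads in Nbr(wt) cells, 79 in NbrCTD cells and 107 in NbrCTD-GWp cells, against 625 in nbrKO. The level was 7.69 miRNA RPM (6.51 to 9.02) in Nbr(wt) cells, 5.47 (4.33 to 6.81) in NbrCTD cells and 6.20 (5.08 to 7.49) in NbrCTD-GWp cells, against 48.9 (45.1 to 52.9) in nbrKO. The nbrKO library again stood apart, while the intervals of the constructs' libraries all overlapped one another. The log2 difference from nbrKO was -2.52 in Nbr(wt) cells, -2.95 in NbrCTD cells and -2.79 in NbrCTD-GWp cells. Adding 1 before taking the logarithm understates the change of so rare an arm, and with 0.1 added the differences were -2.65, -3.14 and -2.96 in the same order.

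**Figure D1:**
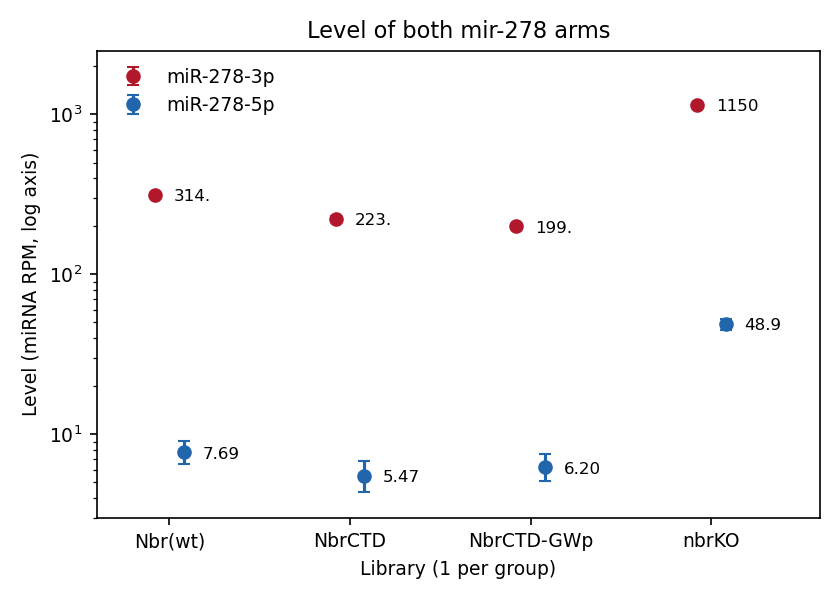
Level of miR-278-3p and miR-278-5p in miRNA RPM (log axis) in each library, 1 library per group, with exact Poisson 95% intervals as bars where they exceed the symbol. Both arms sit lower in the 3 libraries with a construct than in nbrKO, at 199 to 314 against 1150.4 for miR-278-3p and at 5.47 to 7.69 against 48.9 for miR-278-5p.

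Other arms differed from nbrKO in both directions, and which direction prevailed depended on the scaling. A call of lower or higher required a difference of at least 2-fold with Poisson intervals that did not overlap. Of the 123 arms that averaged 100 reads or more over the libraries, 25.2% were called lower in Nbr(wt) cells, 15.4% in NbrCTD cells and 17.1% in NbrCTD-GWp cells, and both mir-278 arms were among them each time. Calls of higher took 6.50% of arms in Nbr(wt) cells, 8.94% in NbrCTD cells and 8.13% in NbrCTD-GWp cells. Since mir-278 was chosen for this difference, nothing is read from its calls. The median arm differed from nbrKO by -0.38 on the log2 scale in Nbr(wt) cells, -0.11 in NbrCTD cells and -0.21 in NbrCTD-GWp cells. With TMM factors the balance turned: 13 arms were lower and 24 higher in Nbr(wt) cells, 10 and 26 in NbrCTD cells and 12 and 18 in NbrCTD-GWp cells, with medians of 0.23, 0.41 and 0.20. Both mir-278 arms were called lower with each construct under TMM factors too. Relative to the median in miRNA RPM, miR-278-3p stood at -1.49, -2.25 and -2.32, and miR-278-5p at -2.14, -2.83 and -2.59, in the same order of libraries. Ordered from the lowest difference, miR-278-5p came at position 1 of 123 in all 3 comparisons, and miR-278-3p at 8 in Nbr(wt) cells, 2 in NbrCTD cells and 3 in NbrCTD-GWp cells. All 3 comparisons use the same nbrKO library, and whatever is particular to that library enters each.

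**Figure D2:**
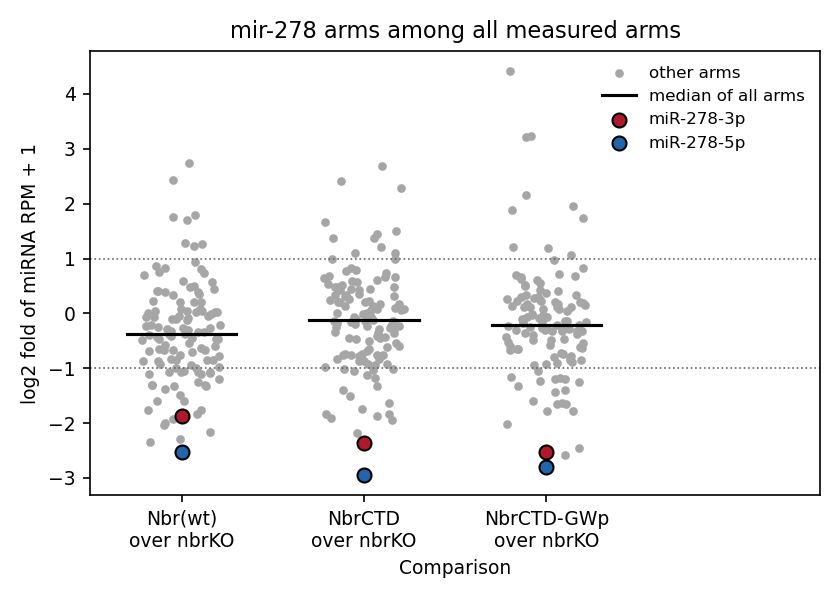
Difference in level from nbrKO, as log2 fold of miRNA RPM + 1, for 123 arms in each of 3 comparisons; gray points are other arms, black bars the median and dotted lines the 2-fold threshold. miR-278-5p lies at the bottom of every column, at -2.52, -2.95 and -2.79, and miR-278-3p near it at -1.87, -2.36 and -2.52.

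In rank, miR-278-3p was arm 62 of 261 in Nbr(wt) cells, 69 in NbrCTD cells and 73 in NbrCTD-GWp cells, against 43 in nbrKO. It made up 0.0314% of miRNA reads in Nbr(wt) cells, 0.0223% in NbrCTD cells and 0.0199% in NbrCTD-GWp cells, against 0.115% in nbrKO. The 3 arms next above it in nbrKO were miR-988-5p, miR-970-3p and miR-276a-5p, and the 3 next below were miR-999-3p, miR-9b-5p and miR-9c-5p. Arms of like level in nbrKO took different courses. miR-988-5p had 355 miRNA RPM in Nbr(wt) cells, 661 in NbrCTD cells and 631 in NbrCTD-GWp cells, against 1212 in nbrKO, and was called lower only in Nbr(wt) cells. miR-9b-5p, a relative of miR-9a, had 3398 in Nbr(wt) cells, 2704 in NbrCTD cells and 3465 in NbrCTD-GWp cells, against 1038 in nbrKO, and was called higher in each. The other 4 neighbours were called in none of the 3 comparisons, and all 6 stood above miR-278-3p in every library with a construct.

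The libraries with a construct were also compared with one another, without nbrKO. miR-278-3p was lower in NbrCTD cells than in Nbr(wt) cells, by a log2 difference of -0.49, and lower in NbrCTD-GWp cells than in Nbr(wt) cells, by -0.66. Both pairs had intervals that did not overlap, and both fell short of the 2-fold threshold, which 0.813% of arms passed downward in each of these comparisons. The order of NbrCTD-GWp and NbrCTD depended on the scaling. The log2 difference between them was -0.16 in miRNA RPM, but 0.05 in the RPM of the authors, where NbrCTD-GWp had 125.9 (122 to 130.2) and NbrCTD 121.5 (117 to 126). For miR-278-5p the log2 differences were -0.43 for NbrCTD over Nbr(wt), 0.16 for NbrCTD-GWp over NbrCTD and -0.27 for NbrCTD-GWp over Nbr(wt), all with overlapping intervals at 79 to 151 reads.

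The passenger made up a smaller part of mir-278 reads with every construct, a measure that does not depend on how libraries are scaled. Of the reads of both arms, miR-278-5p held 2.39% (2.03 to 2.79) in Nbr(wt) cells, 2.39% (1.90 to 2.98) in NbrCTD cells and 3.02% (2.48 to 3.64) in NbrCTD-GWp cells, against 4.08% (3.77 to 4.40) in nbrKO. All 3 intervals lay below that of nbrKO and overlapped one another, but at 99% the interval of NbrCTD-GWp reached that of nbrKO. There were 40.9 guide reads for each passenger read in Nbr(wt) cells, 40.8 in NbrCTD cells and 32.1 in NbrCTD-GWp cells, against 23.5 in nbrKO. Other precursors moved both ways. Of 69 with both arms measured, 42.0% had a lower and 8.70% a higher passenger share in Nbr(wt) cells, 36.2% a lower and 23.2% a higher one in NbrCTD cells, and 31.9% a lower and 17.4% a higher one in NbrCTD-GWp cells, by non-overlapping intervals. Ordered from the largest fall in percentage points, mir-278 stood at position 26 in Nbr(wt) cells, 23 in NbrCTD cells and 24 in NbrCTD-GWp cells. Its passenger share was below the median precursor throughout, at which the passenger held 4.99% in Nbr(wt) cells, 4.68% in NbrCTD cells, 4.62% in NbrCTD-GWp cells and 6.01% in nbrKO. A deposited TRUE or FALSE mark, read here as marking the main arm, was TRUE for miR-278-3p and FALSE for miR-278-5p in all 4 libraries.

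**Figure D3:**
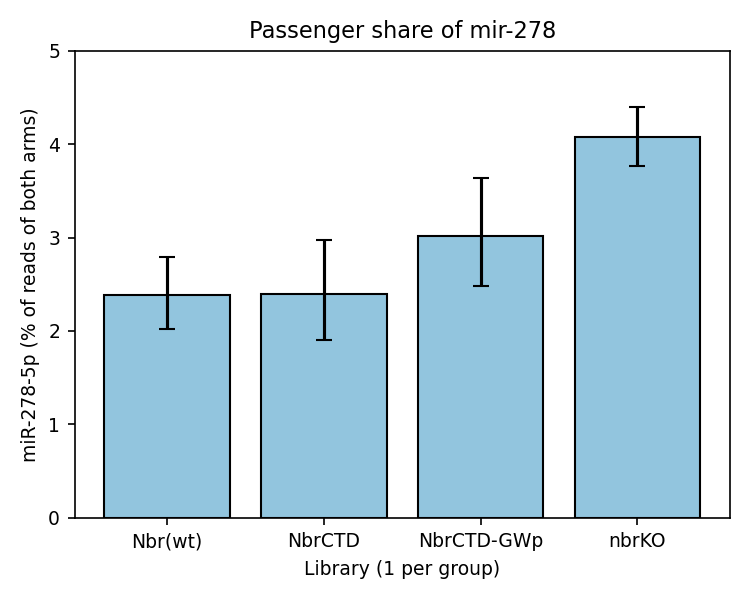
Share of miR-278-5p in the reads of both mir-278 arms, in percent, for each library (1 per group), with exact Clopper-Pearson 95% intervals. The bars stand at 2.39%, 2.39% and 3.02% in Nbr(wt), NbrCTD and NbrCTD-GWp cells, against 4.08% in nbrKO.

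The 3′ end was followed through the tailed share. The table gives each arm genome-matching (GM) reads and a second class headed PM, read here as prefix-matching reads whose 3′ end carries an untemplated tail, and the tailed share is their part of all reads of the isoform. For miR-278-3p it was 1.64% (1.33 to 1.98) in Nbr(wt) cells, 2.73% (2.20 to 3.36) in NbrCTD cells and 2.41% (1.93 to 2.98) in NbrCTD-GWp cells, against 3.01% (2.74 to 3.30) in nbrKO. These shares rest on 101 tailed reads in Nbr(wt) cells, 88 in NbrCTD cells and 83 in NbrCTD-GWp cells, against 443 in nbrKO. Only the interval of Nbr(wt) lay below that of nbrKO, as was the case for 48.2% of the 114 arms that reached 100 reads in each library. In NbrCTD cells and in NbrCTD-GWp cells the intervals overlapped that of nbrKO, so neither was called. Such an overlap does not show that the shares were alike. At the nbrKO share, 97.0 and 103.6 tailed reads would fall among the reads there, against 88 and 83 counted. Over all arms, 32.5% and 44.7% were called lower in these comparisons.

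Between constructs, the tailed share of miR-278-3p was higher in NbrCTD cells than in Nbr(wt) cells by 1.10 percentage points, with intervals that did not overlap at 95% but did at 99%. In that comparison 39.5% of arms were called higher. NbrCTD-GWp differed from Nbr(wt) by 0.78 points and from NbrCTD by -0.32 points, both with overlapping intervals. The share of miR-278-3p lay close to the middle of all arms: the median arm had 2.05% in Nbr(wt) cells, 2.73% in NbrCTD cells, 2.25% in NbrCTD-GWp cells and 3.01% in nbrKO. Ordered from the most tailed, miR-278-3p was arm 69 of 114 in Nbr(wt) cells, 57 in NbrCTD cells, 55 in NbrCTD-GWp cells and 57 in nbrKO.

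Taken as levels, tailed reads of miR-278-3p had overlapping intervals in the libraries with a construct, unlike all its reads together. Tailed reads stood at 5.14 miRNA RPM (4.19 to 6.25) in Nbr(wt) cells, 6.09 (4.88 to 7.50) in NbrCTD cells and 4.81 (3.83 to 5.96) in NbrCTD-GWp cells, against 34.7 (31.5 to 38.0) in nbrKO. An overlap of intervals does not show that the levels were alike, and nbrKO stood apart from all 3. Against nbrKO, the level of tailed reads was 6.74-fold lower in Nbr(wt) cells, 5.69-fold lower in NbrCTD cells and 7.21-fold lower in NbrCTD-GWp cells. Genome-matching reads stood at 309 miRNA RPM in Nbr(wt) cells, 217 in NbrCTD cells and 194 in NbrCTD-GWp cells, against 1116 in nbrKO.

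The passenger carried almost no tails. miR-278-5p had 0 tailed reads of 151 in Nbr(wt) cells, 0 of 79 in NbrCTD cells and 0 of 107 in NbrCTD-GWp cells, against 4 of 625 in nbrKO. A count of 0 allows a share of up to 1.99% in Nbr(wt) cells, 3.80% in NbrCTD cells and 2.80% in NbrCTD-GWp cells, counting 3 reads as the limit. The upper ends of the exact Clopper-Pearson 95% intervals, which are those plotted, lie higher, at 2.41%, 4.56% and 3.39% in the same order. The share in nbrKO was 0.640% (0.175 to 1.63), below that of miR-278-3p in the same library with no overlap of intervals. At that share, only 0.966, 0.506 and 0.685 tailed reads would fall among the reads of the 3 constructs' libraries in the same order. A share lower than that of nbrKO could therefore not be seen at this depth.

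**Figure D4:**
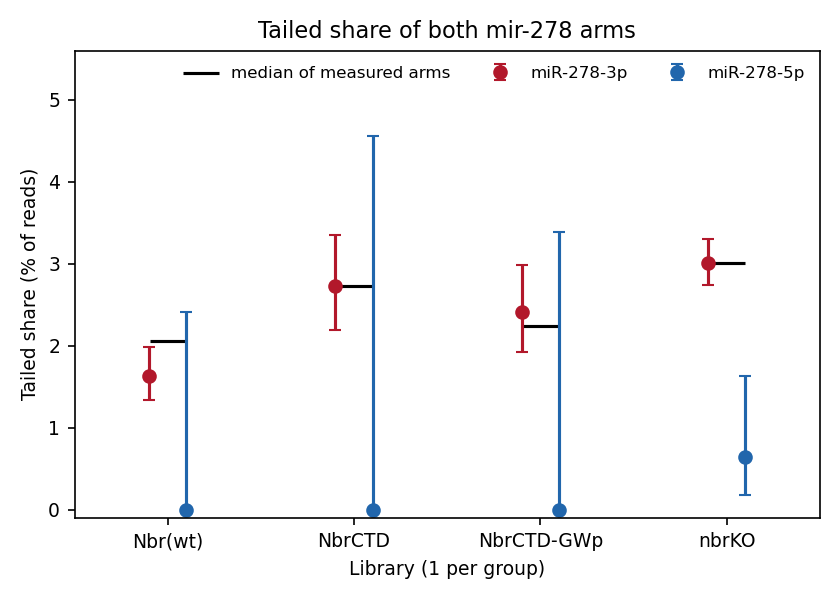
Tailed share in percent of the reads of each mir-278 arm in each library (1 per group), with exact Clopper-Pearson 95% intervals; black dashes give the median of 114 arms. miR-278-3p stands at 1.64% in Nbr(wt) cells, 2.73% in NbrCTD cells and 2.41% in NbrCTD-GWp cells, against 3.01% in nbrKO, and miR-278-5p has 0 tailed reads in the libraries with a construct.

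The 5′ end of miR-278-3p varied less than that of the median row in all libraries, while miR-278-5p had too few reads for a close estimate. The table lists 1 5′ isoform for each arm, with the fraction of the arm's reads that it holds. Dividing its reads by that fraction gave a whole number of reads for both arms in every library, 157, 81 and 113 for miR-278-5p in Nbr(wt), NbrCTD and NbrCTD-GWp cells and 642 in nbrKO. For miR-278-3p the reads at other 5′ starts were 113 of 6286 in Nbr(wt) cells, 52 of 3272 in NbrCTD cells and 59 of 3497 in NbrCTD-GWp cells, against 245 of 14948 in nbrKO. Their share was 1.80% (1.48 to 2.16) in Nbr(wt) cells, 1.59% (1.19 to 2.08) in NbrCTD cells and 1.69% (1.29 to 2.17) in NbrCTD-GWp cells, against 1.64% (1.44 to 1.86) in nbrKO. All these intervals overlapped. Elsewhere shifts were not rare, since of the 119 rows that reached 100 reads in each library 19.3% had a lower and 17.6% a higher share in Nbr(wt) cells. In NbrCTD cells 11.8% were lower and 21.8% higher, and in NbrCTD-GWp cells 17.6% were lower and 19.3% higher. The median row had 3.13% of reads at other starts in Nbr(wt) cells, 3.35% in NbrCTD cells and 3.17% in NbrCTD-GWp cells, against 3.15% in nbrKO. For miR-278-5p the share was 3.82% in Nbr(wt) cells, 2.47% in NbrCTD cells and 5.31% in NbrCTD-GWp cells, against 2.65% in nbrKO. These last shares rest on 6, 2 and 6 reads against 17, and their intervals, which reach 11.2% in NbrCTD-GWp cells, overlapped.

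To find arms of like course, each arm's log2(miRNA RPM + 1) was centred on its mean over the 4 libraries, and the root-mean-square distance to each mir-278 arm was taken. The distance between miR-278-3p and miR-278-5p was 0.26. Among 121 other arms, whose median distance to miR-278-3p was 0.97, the 6 nearest were miR-986-3p at 0.24, miR-1012-5p at 0.29, miR-4939-3p at 0.31, miR-968-5p at 0.32, miR-281-2-5p at 0.40 and bft-5p at 0.41. The last is the 5p arm of bereft, which RefSeq also lists as miR-263a and which is known to protect sensory bristle cells from death. miR-1012 is a mirtron, whose hairpin ends are made by splicing. The nearest arm, miR-986-3p, had 112 reads in Nbr(wt) cells, 68 in NbrCTD cells and 41 in NbrCTD-GWp cells, against 246 in nbrKO. It reached the required average of 100 reads only through nbrKO, since the libraries with a construct averaged 73.7, so its high level there is a condition of its place in the search. Without it the nearest arm is miR-1012-5p.

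The most abundant of the 6, miR-968-5p, had 579 miRNA RPM in Nbr(wt) cells, 389.96 in NbrCTD cells and 458 in NbrCTD-GWp cells, against 1432 in nbrKO. miR-1012-5p had 35.0 in Nbr(wt) cells, 38.8 in NbrCTD cells and 35.6 in NbrCTD-GWp cells, against 148 in nbrKO. In both, nbrKO was the high library, a shape that a search for arms like miR-278-3p selects for. The arms nearest to miR-278-5p were miR-1012-5p at 0.39, miR-281-1-5p at 0.42, miR-281-2-5p at 0.43 and miR-986-3p at 0.47. miR-281-2-5p, from 1 of a pair of nearly identical genes, had 103 miRNA RPM in Nbr(wt) cells, 121 in NbrCTD cells and 135 in NbrCTD-GWp cells, against 467 in nbrKO.

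Likeness in level did not extend to tails in every case. miR-4939-3p carried tails on 11.4% of its reads in Nbr(wt) cells, 21.3% in NbrCTD cells and 13.9% in NbrCTD-GWp cells, against 11.1% in nbrKO. These shares rest on 325, 169 and 231 reads against 568. miR-281-2-5p had 4.94% in Nbr(wt) cells, 5.84% in NbrCTD cells and 4.04% in NbrCTD-GWp cells, against 8.37% in nbrKO. miR-1012-5p had 1.60% in Nbr(wt) cells, 1.07% in NbrCTD cells and 2.12% in NbrCTD-GWp cells, against 1.80% in nbrKO. miR-968-5p was nearer to miR-278-3p in size of share, with 2.08% in Nbr(wt) cells, 1.90% in NbrCTD cells and 2.30% in NbrCTD-GWp cells, against 2.98% in nbrKO. The order among constructs differed, since miR-968-5p was lowest in NbrCTD cells, where miR-278-3p was highest.

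**Figure D5:**
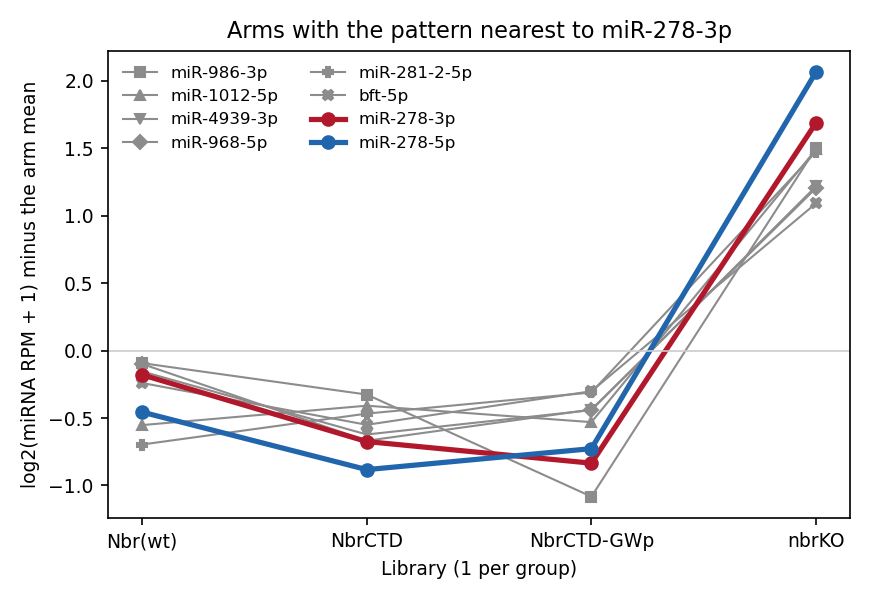
Level of both mir-278 arms and of the 6 arms nearest to miR-278-3p in each library, as log2(miRNA RPM + 1) minus the arm's mean over the 4 libraries. Each line is high in nbrKO and lower in the libraries with a construct, a shape that the choice by distance to miR-278-3p selects for. In nbrKO, miR-278-3p stands at 1.69 and miR-278-5p at 2.07.

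Other miRNAs with known roles in growth, survival or metabolism were listed as a group. Of 10 listed, 9 had enough reads, since miR-9a-5p did not. None of the 9 was called lower in any construct's library under any of the 4 scalings. Over all 123 arms, 25.2%, 15.4% and 17.1% were called lower in miRNA RPM, and 13, 10 and 12 arms with TMM factors, in the order Nbr(wt), NbrCTD and NbrCTD-GWp. Arms called lower numbered 15, 14 and 19 with median-of-ratios factors, and 21, 16 and 14 in the RPM of the authors. In miRNA RPM, 1 of the 9 was called higher in Nbr(wt) cells, 0 in NbrCTD cells and 2 in NbrCTD-GWp cells, beside 6.50%, 8.94% and 8.13% of all arms. With TMM factors these counts were 3, 3 and 2, beside 24, 26 and 18 of all 123 arms, and the 3 in NbrCTD cells were miR-305-5p, miR-7-5p and miR-184-3p. Median-of-ratios factors gave 2, 0 and 2, beside 15, 13 and 12 of all 123 arms. The RPM of the authors gave 1, 0 and 2, beside 11, 13 and 12 of all 123 arms. In miRNA RPM the median log2 difference of the 9 was 0.01 in Nbr(wt) cells, -0.14 in NbrCTD cells and -0.08 in NbrCTD-GWp cells. The medians over all arms were -0.38, -0.11 and -0.21. The 10 listed held 68.3% of miRNA reads in Nbr(wt) cells, 65.9% in NbrCTD cells, 67.1% in NbrCTD-GWp cells and 66.8% in nbrKO. They therefore weigh heavily in the total that sets miRNA RPM, which limits how far their summed level can move. With TMM factors the list's medians were 0.64, 0.38 and 0.34, against 0.23, 0.41 and 0.20 over all arms. bantam-3p, which promotes growth and blocks cell death, had 359931 miRNA RPM in Nbr(wt) cells, 306587 in NbrCTD cells and 339045 in NbrCTD-GWp cells, against 357335 in nbrKO. miR-14-3p, which restrains cell death and acts in insulin-producing cells, had 132516 in Nbr(wt) cells, 174100.1 in NbrCTD cells and 109596 in NbrCTD-GWp cells, against 137196 in nbrKO. miR-277-3p, linked to branched-chain amino acid breakdown, had 5563 in Nbr(wt) cells, 6652 in NbrCTD cells and 5593 in NbrCTD-GWp cells, against 10028 in nbrKO, a difference short of the 2-fold threshold. miR-7-5p, which acts in eye and wing patterning, was called higher in Nbr(wt) and NbrCTD-GWp cells, and with TMM factors also in NbrCTD cells, with 1679.8 in Nbr(wt) cells, 1037 in NbrCTD cells and 2676 in NbrCTD-GWp cells, against 686 in nbrKO.

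In tailed share, 7 of these 9 were called lower in Nbr(wt) cells, 5 in NbrCTD cells and 7 in NbrCTD-GWp cells, beside 48.2%, 32.5% and 44.7% of all 114 arms. Calls of a higher share numbered 1, 3 and 2 in the same order, beside 5.26%, 18.4% and 7.02% of all arms. Of the 9 arms, 8 had more reads than miR-278-3p in every library and so narrower intervals. miR-8-3p, which promotes insulin signalling in the fat body, had 3.85% in Nbr(wt) cells, 6.0% in NbrCTD cells and 4.24% in NbrCTD-GWp cells, against 6.82% in nbrKO.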

How the data were processed

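Small RNAs of 18 to 30 nt from 25 µg of total RNA were sequenced, per the labels' protocols, from cells grown at 25 °C; both adapters carried 4 random bases. Of tools, cutadapt 1.2.1 and HTSeq 0.9.1 appear in the submitters' processing notes with no role stated. Aligner, counting rule and genome build stay unnamed in the sources used here. For each 5′ isoform the authors deposited, per the file headers, GM and PM values, which are in RPM, and a fraction (0 to 1) of its arm. The headers spell out neither GM nor PM.

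In each library most RPM values were whole multiples of 1 step, which was taken as 1 read. Within 0.01 read, 94.8% to 95.9% of GM and 91.7% to 95.2% of PM values above 0 came out whole, and all mir-278 values did. Reads over isoform fraction came out whole for 90.7% to 94.1% of rows. Of 495 rows, the 270 given in all libraries were joined into 261 arms by summing loci of 1 name and 5′ end; miR-276b-5p, identical to miR-276a-5p, was dropped. Intervals are exact Poisson for levels and exact Clopper-Pearson for shares, at 95%. No count model or p-value was possible with 1 library per group. Scripts used Python 3.11.15 with numpy 2.4.6, pandas 2.3.3 and scipy 1.17.1; the annotation was Ensembl release 115.

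Named miRNAs are both mir-278 arms, the 6 and 4 arms nearest to them in pattern, 3 neighbours on either side in nbrKO level, and listed growth, marker and S2 miRNAs. Members, lists and rules were chosen with earlier results of these data known. Alternatives were 3 other scalings, GM reads only, a pseudocount of 0.1, a 1.5-fold threshold, 99% intervals, other read minimums, and reads at every 5′ start, the last chosen after seeing the data.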

Additional observations from a re-analysis of the deposited data

How the results depend on the processing

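No paired analysis was possible because each group had 1 library, and none could be left out. Both mir-278 arms were called lower than nbrKO with each construct under all 8 alternatives, with log2 differences of -1.87 to -1.24 for miR-278-3p in Nbr(wt) cells, -2.37 to -1.84 in NbrCTD cells and -2.53 to -2.11 in NbrCTD-GWp cells, and of -2.65 to -1.95, -3.14 to -2.50 and -2.96 to -2.43 for miR-278-5p. The upper ends came from TMM factors, which moved the median of all arms by 0.62, 0.52 and 0.41; median-of-ratios factors moved it by 0.35, 0.13 and 0.18 and the RPM of the authors by 0.18, 0.04 and 0.25. Of 144 values for mir-278 under alternatives, 141 kept their call or stayed uncalled, but some of them could not have changed. A 1.5-fold threshold cannot undo a call made at 2-fold, and a 99% interval cannot add a call. Summing listed isoforms changes nothing for mir-278, since 1 is listed for each arm. With 99% intervals, the tailed share of miR-278-3p in NbrCTD cells over Nbr(wt) (1.10 points) and the passenger share in NbrCTD-GWp cells over nbrKO (-1.06 points) were no longer called. At a 1.5-fold threshold, miR-278-3p was called lower in NbrCTD-GWp cells than in Nbr(wt) cells (-0.66).

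Counts over all arms moved with scaling. In Nbr(wt) cells, 31 arms were lower and 8 higher, against 15 and 15 with median-of-ratios factors and 13 and 24 with TMM factors. In NbrCTD cells, 19 were lower and 11 higher, against 10 and 26 with TMM factors. In NbrCTD-GWp cells, 21 were lower and 10 higher, against 12 and 18 with TMM factors. With no minimum of reads, 49 were lower in Nbr(wt) cells, 34 in NbrCTD cells and 35 in NbrCTD-GWp cells. These counts are over all 261 arms in place of 123, so they do not mean that a larger share was called. The cause of these shifts was not tested. Depth limits the tailed share of miR-278-5p, with 79 to 151 reads in the constructs' libraries.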
